A study of Mus musculus with 5 samples.

Results

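T cells of 2 mouse single-cell libraries were compared, the library with barcode suffix 2 against the library with barcode suffix 1, both from an aggregated count matrix called H here. A barcode counted as a T cell when it held at least 500 UMIs (unique molecular identifiers, 1 for each captured RNA molecule), at least 300 genes, at most 10% mitochondrial UMIs and a UMI of at least 2 of Cd3d, Cd3e, Cd3g, Lck and Lat. These genes encode chains of the T cell receptor (TCR) complex, its kinase and an adaptor. The rule kept 3878 of 4365 suffix 2 barcodes and 4138 of 4630 suffix 1 barcodes, 8016 of the 22472 T cells found by the same rule in the 5 libraries of the series.

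The study took splenic CD4 T cells of a naive OT-II mouse, whose transgenic receptor recognises an ovalbumin (OVA) peptide on MHC class II. They were profiled alone or after overnight culture with antigen-presenting fibroblasts of pancreatic tumors (apCAFs), sorted from the tumor clones sKPC and rKPC, with DMSO (the vehicle) or OVA. The labels give 5 groups of 1 sample. They tie the sKPC coculture with OVA and both rKPC cocultures, with DMSO and with OVA, to matrix H, but that matrix carries only 2 barcode suffixes. Matrix G carries 3, although the labels tie to it only the DMSO coculture with sKPC and the T cells alone. If the 2 matrix names were exchanged and the suffixes followed the order of the library names, suffix 2 would be OT-II cells with sKPC apCAFs and DMSO, and suffix 1 would be OT-II cells alone. That mapping is inferred and no source used here states it, so the libraries are called by suffix. With 1 library a side there is no replicate and no test. Every difference below is between these 2 libraries, and the intervals cover counting error alone and leave out how cells, cultures or animals vary.

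A naive CD4 T cell leaves its resting state when its receptor meets peptide on MHC class II together with costimulation, and then transcribes immediate genes such as those of the Nr4a and Egr families. Regulatory T cells, defined by the transcription factor Foxp3, carry high levels of the inhibitory receptor CTLA-4 and are a small part of splenic CD4 cells. Fibroblasts can act on T cells through antigen, adhesion and secreted factors such as TGF-beta, whose signal passes through receptor kinases and Smad proteins and induces its own inhibitors, among them Smad7 and Skil.

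The libraries were alike in depth. T cells of suffix 2 held 33656414 UMIs with a median of 8248.5 UMIs and 2874 genes, and those of suffix 1 held 36242335 UMIs with a median of 8381 UMIs and 2893.5 genes. Of the barcodes that passed the depth and mitochondrial limits, 92.2% of suffix 2 (95% exact interval 91.3 to 93.0) and 90.8% of suffix 1 (89.9 to 91.6) were T cells. Exactly 2 of the 5 marker genes were found in 134 and 187 of the T cells, and 184 and 220 further barcodes held exactly 1 and stayed outside, suffix 2 given first in both. Trac, the constant gene of the TCR alpha chain, stood at 6742 CPM (counts per 1e6 UMIs of the library's T cells) in suffix 2 and 7221 CPM in suffix 1. Of the 2 libraries' barcode sequences 8 were shared, 7 of them T cells in both. Beta chain segments were led in both by Trbv12-2, with 54.4% of 2232 Trbv UMIs in suffix 2 and 58.7% of 2588 in suffix 1.

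RNA of fibroblasts set the libraries apart outside the T cells. Over all barcodes, 10 fibroblast markers such as Col1a1 and Sparc summed to 365 UMIs or 10.4 CPM in suffix 2 (9.37 to 11.5), against 32 UMIs or 0.852 CPM in suffix 1 (0.583 to 1.20). Inside the T cells the sums were 63 UMIs or 1.87 CPM in suffix 2 and 27 UMIs or 0.745 CPM in suffix 1. Lum and Pdgfra had 0 UMIs in the T cells of both libraries, Sparc had 15 in suffix 2 and 0 in suffix 1, and Pdgfrb had 29 in suffix 2 and 20 in suffix 1. Erythroid markers went the other way, with 52.9 CPM in suffix 2 T cells and 349 CPM in suffix 1 T cells, where a single barcode held 10184 of the 12663 UMIs. MHC class II genes summed to 42.4 CPM in suffix 2 and 105 CPM in suffix 1, and B cell markers to 9.39 and 15.9 CPM in the same order. Myeloid markers summed to 82.5 CPM in suffix 2 and 73.1 CPM in suffix 1, but their members went in opposite directions. Of the 5 markers S100a8 and S100a9 were at least 1.5-fold higher in suffix 2, and Lyz2 and Cd68 lower. In T cells without Foxp3 RNA, S100a8 had 1135 UMIs in suffix 2 and 6 in suffix 1. A single cell held 1432 of the 2775 myeloid UMIs of suffix 2, and another held 1028 of the 2651 of suffix 1. The part of these RNAs in the differences below was not tested for each gene. Genes over 4 times higher in barcodes outside the T cells than in the T cells of either library are called free RNA genes. They were left out of the named genes. Only barcodes within the depth and mitochondrial limits entered that comparison. Of 54 suffix 2 barcodes outside the T cells with at least 2 fibroblast markers, 50 exceeded the mitochondrial limit and did not enter it.

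The T cells of the 2 libraries had nearly the same levels for most genes. Of 10838 genes with at least 200 UMIs over both libraries (measured genes), 9737 or 89.8% lay within 0.25 of 0 on the log2 scale of suffix 2 over suffix 1, and the median was -0.01. At least 1.5-fold higher in suffix 2 were 44 genes, 0.406% of those measured, and at least 1.5-fold lower were 126, or 1.16%. Of these, 21 of the 44 and 91 of the 126 were free RNA genes. The 15 higher and 15 lower genes named below lead by the bound of their interval nearest to 0. They come from 10147 measured genes that were neither free RNA nor technical. Technical genes were the markers of the T cell rule and mitochondrial, ribosomal protein and receptor segment genes.

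**Figure D1:**
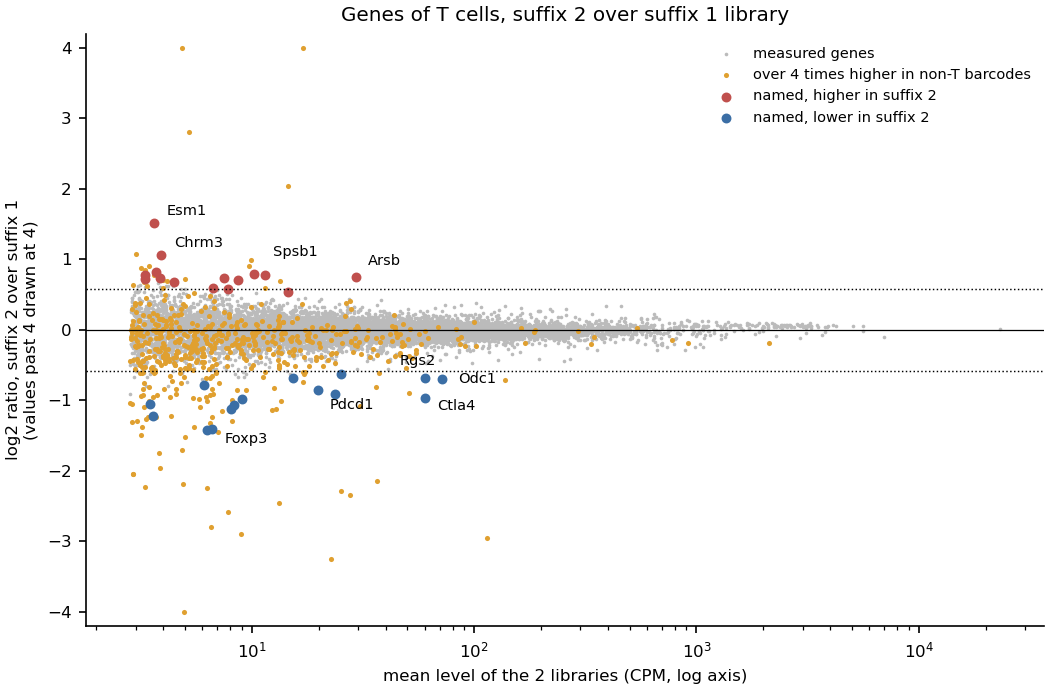
Log2 ratio of suffix 2 over suffix 1 against the mean level in CPM (log axis) for 10838 measured genes of T cells. Grey points are measured genes, orange points free RNA genes, red and blue points the 15 named genes of each direction, and dotted lines mark 1.5-fold; most genes lie close to 0 and the largest ratios are orange.

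Among the 15 genes named as higher in suffix 2 were Arsb, Ctbs, Ctsw and Smpd5. Arsb, the lysosomal arylsulfatase B that degrades dermatan and chondroitin sulfate, had 1238 UMIs or 36.8 CPM in suffix 2 (34.8 to 38.9) and 796 UMIs or 21.96 CPM in suffix 1 (20.5 to 23.5), a log2 ratio of 0.74 (0.61 to 0.87). It was found in 508 cells of suffix 2 and 349 of suffix 1, so the higher level was spread over many cells. Ctbs, another lysosomal enzyme of glycan breakdown, stood at 8.02 CPM in suffix 2 and 5.30 CPM in suffix 1 (log2 0.60, 0.33 to 0.87). Ctsw, the cathepsin W protease of cytotoxic lymphocytes, stood at 13.01 CPM in suffix 2 and 7.51 CPM in suffix 1 (log2 0.79, 0.57 to 1.02). Smpd5, a sphingomyelin phosphodiesterase, stood at 9.36 CPM in suffix 2 and 5.60 CPM in suffix 1 (log2 0.74, 0.482 to 1.002). All 4 were enzymes at low levels, found in a minority of cells.

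Spsb1, an adaptor that brings substrates to a ubiquitin ligase, had 486 UMIs or 14.4 CPM in suffix 2 (13.2 to 15.8) and 305 UMIs or 8.42 CPM in suffix 1 (7.50 to 9.42), a log2 ratio of 0.78. Tkfc, the kinase of dihydroxyacetone, stood at 4.13 CPM in suffix 2 and 2.51 CPM in suffix 1 (log2 0.72). Signaling and channel genes stood low as well, with Chrm3, a muscarinic acetylcholine receptor, at 5.29 CPM in suffix 2 and 2.54 CPM in suffix 1. The calcium channel gene Cacna1c stood at 5.53 CPM in suffix 2 and 3.45 CPM in suffix 1, and the potassium channel partner Kcnip2 at 17.2 CPM in suffix 2 and 11.9 CPM in suffix 1. Kcnip2, with a log2 ratio of 0.54, and Ralyl, with 0.58, lay below 1.5-fold and were named for the lower bound of their interval, and the Ralyl ratio was -0.16 without the 5% of T cells with the most UMIs. The thyroid hormone receptor gene Thrb (log2 0.78) and Rassf8 (log2 0.74) complete this set with Gm20544 (log2 0.82), a predicted gene on chromosome 18 (75365332 to 75367088, minus strand) that lies directly beside Smad7, described below. In Cd4 cells without Cd8a, Cd8b1 or Trdc RNA the ratio was 0.12 for Rassf8 and 0.46 for Tkfc.

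Esm1 and Gzmk had their UMIs in few cells. Esm1, which encodes a secreted proteoglycan, had 181 UMIs in 35 cells of suffix 2 and 68 UMIs in 24 cells of suffix 1, the highest ratio of the named genes (log2 1.51, 1.11 to 1.94). One suffix 2 cell held 38 of these UMIs, and the highest suffix 1 cell held 8. Gzmk, the granzyme K gene, had 361 UMIs in 79 cells of suffix 2 and 237 UMIs in 68 cells of suffix 1 (log2 0.71, 0.47 to 0.96). Without the 5% of T cells with the most UMIs the ratio of Gzmk was 0.31 and that of Esm1 0.83. Gzmk was found in 27 of the 35 Esm1 cells of suffix 2 and 19 of the 24 of suffix 1, against 2.04% of all T cells of suffix 2 and 1.64% of suffix 1. The pair overlaps on chromosome 13 (build mm10), Gzmk on the minus strand at 113171608 to 113225908 and Esm1 inside it on the plus strand at 113209659 to 113218098. The sources used here do not say whether counting used strand, so they leave unknown whether reads of the pair were kept apart.

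**Figure D2:**
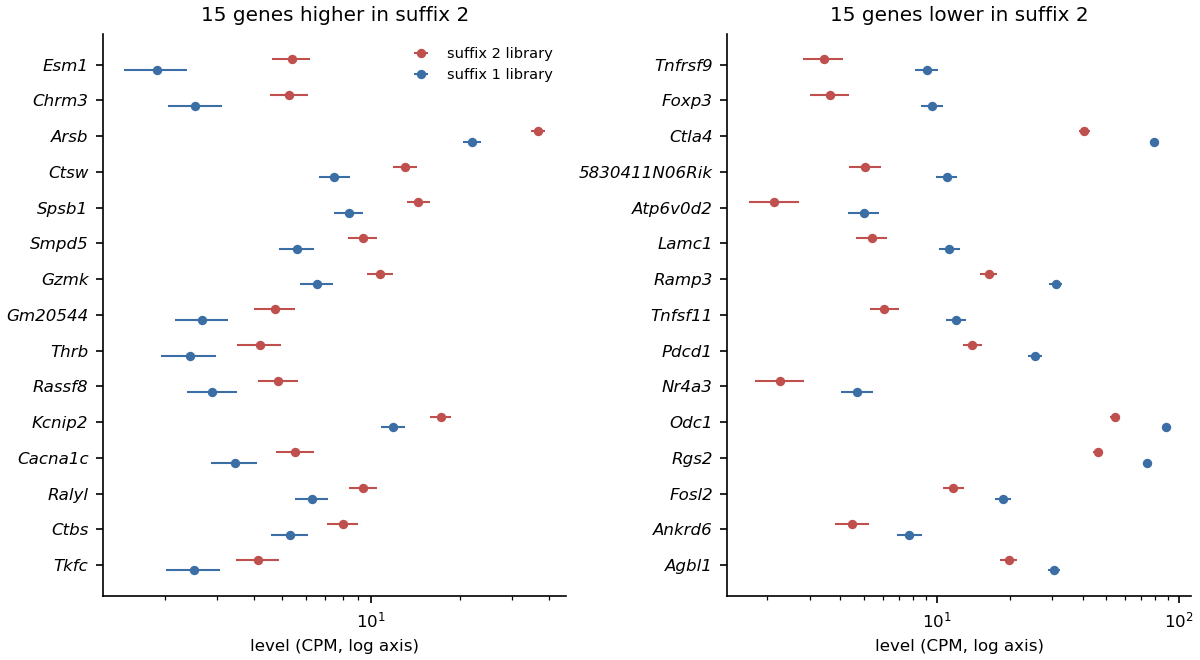
Levels in CPM (log axis) of the 15 genes higher and the 15 genes lower in suffix 2, in T cells of suffix 2 (red) and suffix 1 (blue), with exact 95% Poisson intervals that cover counting error only. The intervals of the 2 libraries are apart for each gene, which the rule that chose them favours; Arsb is the highest of the first set and Odc1 of the second.

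The 15 genes named as lower in suffix 2 included receptors and transcription factors of regulatory and activated T cells. Ctla4, the inhibitory receptor that binds CD80 and CD86, had 1370 UMIs or 40.7 CPM in suffix 2 and 2870 UMIs or 79.2 CPM in suffix 1, a log2 ratio of -0.96 (-1.05 to -0.87). It was found in 430 cells of suffix 2 and 732 of suffix 1. Foxp3 had 122 UMIs in 60 cells of suffix 2 and 348 UMIs in 94 cells of suffix 1 (log2 -1.40, -1.72 to -1.10). Tnfrsf9, the costimulatory receptor 4-1BB, had 115 UMIs or 3.42 CPM in suffix 2 and 331 UMIs or 9.13 CPM in suffix 1 (log2 -1.41). Pdcd1, the inhibitory receptor PD-1, stood at 14.1 CPM in suffix 2 and 25.5 CPM in suffix 1 (log2 -0.86, -1.02 to -0.70). All 4 are high in activated or regulatory T cells and were at modest levels in both libraries.

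Odc1, the rate-limiting enzyme of polyamine synthesis, was the most abundant of the lower genes, with 1838 UMIs or 54.6 CPM in suffix 2 and 3208 UMIs or 88.5 CPM in suffix 1 (log2 -0.70, -0.78 to -0.61). Ramp3, a partner of calcitonin family receptors, stood at 16.4 CPM in suffix 2 and 31.0 CPM in suffix 1 (log2 -0.92). Tnfsf11, the cytokine RANKL, stood at 6.09 CPM in suffix 2 and 12.03 CPM in suffix 1 (log2 -0.98). Lamc1, a laminin chain, had 182 UMIs in suffix 2 and 409 in suffix 1 (log2 -1.06). The other lower genes were Atp6v0d2, a subunit of the vacuolar proton pump (log2 -1.23), 5830411N06Rik (log2 -1.12), Ankrd6 (log2 -0.78) and Agbl1 (log2 -0.62), and 1 cell held 21.4% of the Agbl1 UMIs. Without cells holding 2 markers of another type the Agbl1 ratio was 0.022.

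Rgs2, Fosl2 and Nr4a3 were also lower in suffix 2. Rgs2, which switches off G protein signals, had 1557 UMIs or 46.3 CPM in suffix 2 (44.0 to 48.6) and 2680 UMIs or 73.9 CPM in suffix 1 (71.2 to 76.8), a log2 ratio of -0.68. It was found in 860 cells of suffix 2 and 1168 of suffix 1, more widely than any other lower gene named here. Fosl2, an AP-1 subunit, stood at 11.7 CPM in suffix 2 and 18.8 CPM in suffix 1 (log2 -0.68, -0.86 to -0.50). Nr4a3, an orphan nuclear receptor induced by TCR and by cyclic AMP (cAMP), had 76 UMIs or 2.26 CPM in suffix 2 and 170 UMIs or 4.69 CPM in suffix 1 (log2 -1.05, -1.46 to -0.66). With thinned cells the ratio was -0.52 for Rgs2 and -0.48 for Fosl2, inside 1.5-fold. Relatives of both genes differed less, with log2 ratios of -0.06 (-0.24 to 0.13) for Rgs1 and -0.10 (-0.22 to 0.02) for the AP-1 subunit gene Jun.

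The promoters of Rgs2 and Nr4a3 are shown because both genes are known to be induced by cAMP, which acts through the factor CREB, and were lower together. Each runs from 250 bases before to 50 after the RefSeq start on the gene's strand (GRCm38.p6, chr1:144004100-144004399, minus strand, and chr4:48045055-48045354, plus strand). Capitals mark TGACG, the short form of a CREB site, on either strand.
Rgs2: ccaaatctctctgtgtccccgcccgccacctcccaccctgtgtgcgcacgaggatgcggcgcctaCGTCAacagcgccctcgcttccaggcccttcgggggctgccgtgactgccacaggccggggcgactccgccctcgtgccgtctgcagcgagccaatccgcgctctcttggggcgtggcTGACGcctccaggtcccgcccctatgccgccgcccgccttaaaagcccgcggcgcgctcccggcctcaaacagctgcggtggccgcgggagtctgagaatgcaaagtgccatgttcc
Nr4a3: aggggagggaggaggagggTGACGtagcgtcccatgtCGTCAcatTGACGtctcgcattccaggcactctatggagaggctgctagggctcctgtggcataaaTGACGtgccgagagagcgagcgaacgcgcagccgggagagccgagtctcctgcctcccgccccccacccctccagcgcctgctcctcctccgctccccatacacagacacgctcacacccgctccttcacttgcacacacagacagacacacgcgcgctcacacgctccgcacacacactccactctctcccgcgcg
The Rgs2 promoter held 2 matches and the Nr4a3 promoter held 4. TGACG stood in 20.8% of 32851 RefSeq promoters of this length. Among the named genes it stood in the promoters of 4 of 13 lower genes with an entry and 4 of 10 higher genes with an entry. A match describes these letters and is neither a shown site nor a cause.

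Most of the cAMP response list lay inside 1.5-fold. Of its 13 measured members Fosl2 and Rgs2 were lower, against 1.16% of all measured genes, none was higher, against 0.406%, and the median log2 ratio was -0.06, against -0.01 for all measured genes. Crem, the cAMP-responsive modulator, stood at 59.8 CPM in suffix 2 and 80.6 CPM in suffix 1 (log2 -0.43, -0.51 to -0.35). The receptor genes Adora2a (log2 -0.32), for adenosine, and Ptger2 (log2 -0.40), for prostaglandin E2, had negative ratios, while Ptger4, the other measured prostaglandin E2 receptor, had 0.06. Rgs10, a further regulator of G protein signaling, stood at 215.8 CPM in suffix 2 and 179.6 CPM in suffix 1 (log2 0.27). The phosphodiesterase Pde3b, the most abundant member, stood at 2267 CPM in suffix 2 and 2214 CPM in suffix 1.

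In the TGF-beta pathway none of 15 measured members was past 1.5-fold in either direction, and the median log2 ratio was 0.07. Of all measured genes 0.406% were past 1.5-fold as higher and 1.16% as lower. Several inhibitors of the pathway had positive ratios, and others had ratios near 0. Smad7, which blocks the receptor, had 9575 UMIs or 284.5 CPM in suffix 2 and 8432 UMIs or 232.7 CPM in suffix 1 (log2 0.29, 0.25 to 0.33). Skil, a corepressor of Smad proteins, stood at 83.5 CPM in suffix 2 and 65.1 CPM in suffix 1 (log2 0.36, 0.28 to 0.44), and its relative Ski at 171.6 CPM in suffix 2 and 148.7 CPM in suffix 1 (log2 0.21). The membrane inhibitors Pmepa1 (log2 0.32) and Ldlrad4 (log2 0.23) and the TGF-beta induced integrin gene Itgae (log2 0.37, 0.14 to 0.59) also had positive ratios. Of the other inhibitors, the corepressor Tgif1 had -0.02 (-0.10 to 0.06), and the ubiquitin ligases Smurf1 and Smurf2 had -0.0027 (-0.07 to 0.06) and 0.09 (0.04 to 0.13).

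The parts of the pathway that receive and carry the signal had ratios near 0. Tgfbr2, the ligand-binding receptor, stood at 438 CPM in suffix 2 and 436 CPM in suffix 1. Tgfbr1 had a log2 ratio of 0.05, Smad2 0.07, Smad3 0.03 and Smad4 0.03, and the ligand gene Tgfb1 had -0.09 (-0.16 to -0.02). Nrp1, a coreceptor that is also a TGF-beta responsive gene in T cells, stood at 97.8 CPM in suffix 2 and 76.4 CPM in suffix 1 (log2 0.36, 0.28 to 0.43).

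**Figure D3:**
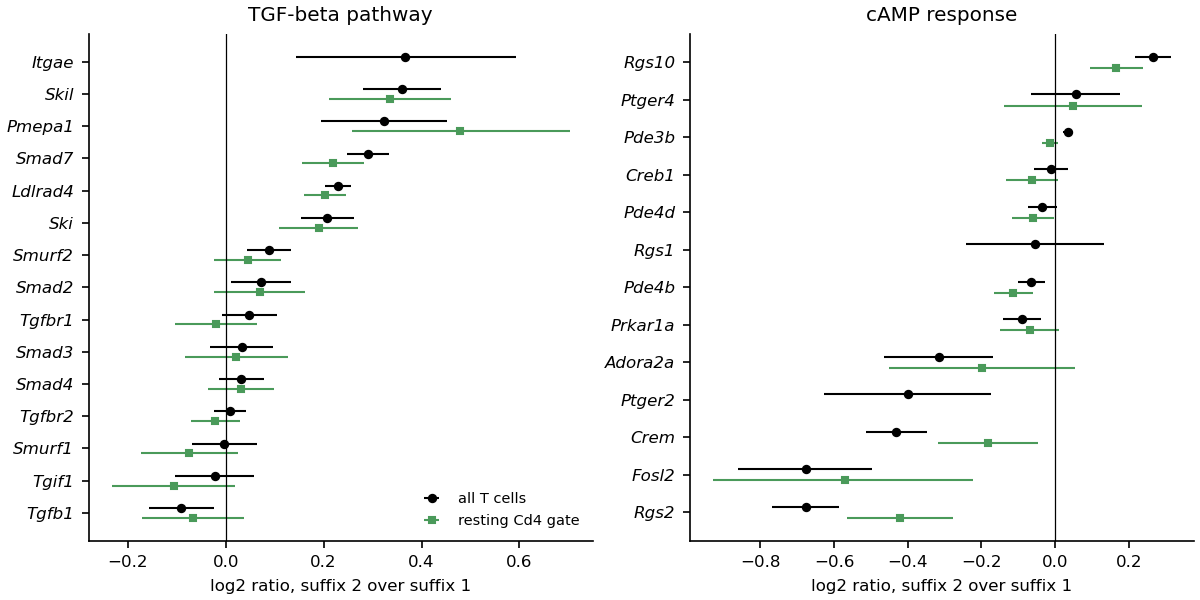
Log2 ratios of suffix 2 over suffix 1 with exact 95% intervals for the measured members of the TGF-beta pathway and cAMP response lists, in all T cells (black circles) and in resting Cd4 cells (green squares, where a gene has at least 200 UMIs). Skil, Pmepa1, Smad7, Ldlrad4 and Ski lie right of 0 in both, while Rgs2, Fosl2 and Crem lie left of 0 in both.

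Of 15 measured regulatory T cell genes 5 were at least 1.5-fold lower in suffix 2 (Foxp3, Ctla4, Tnfrsf9, Tnfrsf4 and Tigit), against 1.16% of all measured genes. None was higher, against 0.406%. The median log2 ratio of the list was -0.38, but -0.13 without Foxp3 cells, -0.10 with thinned cells and -0.14 over the 7 members measured in the resting Cd4 cells. Ikzf2, the transcription factor Helios, stood at 216.1 CPM in suffix 2 and 292.8 CPM in suffix 1 (log2 -0.44). Members below 200 UMIs were also few in suffix 2, with 23 UMIs of Il1rl1, the interleukin-33 receptor, against 122 in suffix 1. The GARP gene Lrrc32 had 33 UMIs in suffix 2 and 89 in suffix 1. Not every member followed, since Ikzf4 had a log2 ratio of 0.06 and Nrp1 and Itgae had positive ones.

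Fewer cells of suffix 2 held Foxp3 RNA. With each cell thinned to 2000 UMIs, 19 of 3770 cells or 0.504% of suffix 2 (0.304 to 0.786) and 47 of 3989 cells or 1.18% of suffix 1 (0.867 to 1.56) held a Foxp3 UMI. Thinning left out 108 shallower cells of suffix 2 and 149 of suffix 1. Without thinning the shares were 1.55% of suffix 2 and 2.27% of suffix 1. Of 34 thinned barcodes with B cell or erythroid markers, which should lack the gene, 0 held one, which with so few barcodes allows a share of up to 10.3%. Those barcodes were shallow, with a median of 1793 UMIs before thinning, when 69 could be used.

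Within Foxp3 cells some genes stood lower and others higher in suffix 2. In the 60 Foxp3 cells of suffix 2 and the 94 of suffix 1, Tnfrsf9 stood at 89.0 CPM in suffix 2 and 219.7 CPM in suffix 1 (log2 -1.29, -1.78 to -0.86). Odc1 stood at 195.8 CPM in suffix 2 Foxp3 cells and 526 CPM in suffix 1 Foxp3 cells (log2 -1.42), and Pdcd1 at 101 and 221 CPM in the same order (log2 -1.11). Ctla4 stood at 386 CPM in suffix 2 Foxp3 cells and 679 CPM in suffix 1 Foxp3 cells (log2 -0.81). Foxp3 itself, whose UMIs chose the cells, stood at 217.2 CPM in suffix 2 and 336.7 CPM in suffix 1 (log2 -0.63). Higher were Nrp1, at 580 CPM in suffix 2 Foxp3 cells and 275 CPM in suffix 1 Foxp3 cells (log2 1.08, 0.84 to 1.31), the interleukin-2 receptor chain Il2ra (log2 0.80, 0.41 to 1.19) and Itgae (log2 0.91, 0.30 to 1.51). Il2ra was found in only 12 of the 60 suffix 2 cells and 25 of the 94 suffix 1 cells, so its higher level lay in few cells. Nrp1 was found in 34 and 53 and Itgae in 12 and 13 of the same cells, suffix 2 first. Lyz2, a myeloid gene, had 1 UMI in suffix 2 Foxp3 cells and 196 UMIs in 4 of the suffix 1 Foxp3 cells, and the part of such RNA in these ratios was not tested. The Foxp3 cells are few, and 217 of the 1370 Ctla4 UMIs of suffix 2 and 702 of the 2870 of suffix 1 lay in them. Regulatory T cells whose Foxp3 RNA was missed can remain among the cells without a Foxp3 UMI. Without Foxp3 cells Ctla4 stood at 34.8 CPM in suffix 2 and 61.6 CPM in suffix 1 (log2 -0.82), and Tnfrsf9 at 1.96 and 2.95 CPM (log2 -0.58, -1.06 to -0.13). The ratios of Tnfrsf9, Odc1 (-0.54), Atp6v0d2 (-0.49) and Ankrd6 (-0.38) then lay inside 1.5-fold.

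Resting Cd4 cells, taken as T cells with a Cd4 UMI and none of Foxp3, Cd44, S100a4, Maf, Cd8a, Cd8b1 or Trdc, numbered 1732 in suffix 2 and 1822 in suffix 1. Among 8941 genes measured in them, 13 were at least 1.5-fold higher in suffix 2, or 0.145%, and 21 lower, or 0.235%. Ctla4 was found in 83 of the suffix 2 cells or 4.79% and 199 of the suffix 1 cells or 10.9%, at 11.5 CPM in suffix 2 and 27.3 CPM in suffix 1 (log2 -1.25, -1.52 to -0.99). Arsb stood at 39.9 CPM in suffix 2 and 21.5 CPM in suffix 1 (log2 0.89), Spsb1 at 12.9 and 7.30 CPM (log2 0.82), and Ctsw at 2.73 and 0.928 CPM (log2 1.52), suffix 2 first. Rgs2 stood at 47.5 CPM in suffix 2 and 63.5 CPM in suffix 1 (log2 -0.42, -0.56 to -0.28), inside 1.5-fold. Smad7 had a log2 ratio of 0.22, Skil 0.33 and Pmepa1 0.48 in these cells. In contrast, Tnfrsf9 had 18 UMIs in suffix 2 and 16 in suffix 1, and Lamc1 had 43 and 39. Ankrd6 went the other way from all T cells, with 47 UMIs in suffix 2 and 21 in suffix 1 (log2 1.22, 0.47 to 2.06).

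Cells with a Trdc UMI and none of Cd4, which carry the delta chain gene of the gamma-delta TCR, were 9.89% of thinned cells in suffix 2 and 9.93% in suffix 1. In them Kcnip2 stood at 16.5 CPM in suffix 2 and 5.52 CPM in suffix 1 (log2 1.56, 0.92 to 2.28), Ctla4 at 26.9 and 69.2 CPM (log2 -1.36), and Rgs2 at 34.8 and 77.7 CPM (log2 -1.16), suffix 2 first. The ratios of Ctla4, Rgs2, Odc1 and Fosl2 were thus negative in Foxp3, resting Cd4 and Trdc cells alike. Among the Trdc cells, the myeloid gene S100a8 had 1120 UMIs in 4 cells of suffix 2 and 0 UMIs in suffix 1. The part of such RNA in the Trdc ratios was not tested. Trdc cells also held 272 of the 438 Ctsw UMIs of suffix 2 and 165 of the 272 of suffix 1. In Cd4 cells with Cd44, Maf or S100a4 RNA and no Foxp3 the intervals of Fosl2 (log2 -0.24, -0.60 to 0.11) and Tnfrsf9 (log2 -0.65, -1.68 to 0.26) spanned 0. Cells with Cd8a or Cd8b1 and no Cd4 were 1.59% of thinned cells in suffix 2 and 0.827% in suffix 1, but 1.68% and 1.74% without thinning, so no order can be read from them. Thinned cells with Cd4 and without Foxp3, Cd8 or Trdc RNA were 31.3% in suffix 2 (29.8 to 32.8) and 34.0% in suffix 1 (32.5 to 35.5).

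**Figure D4:**
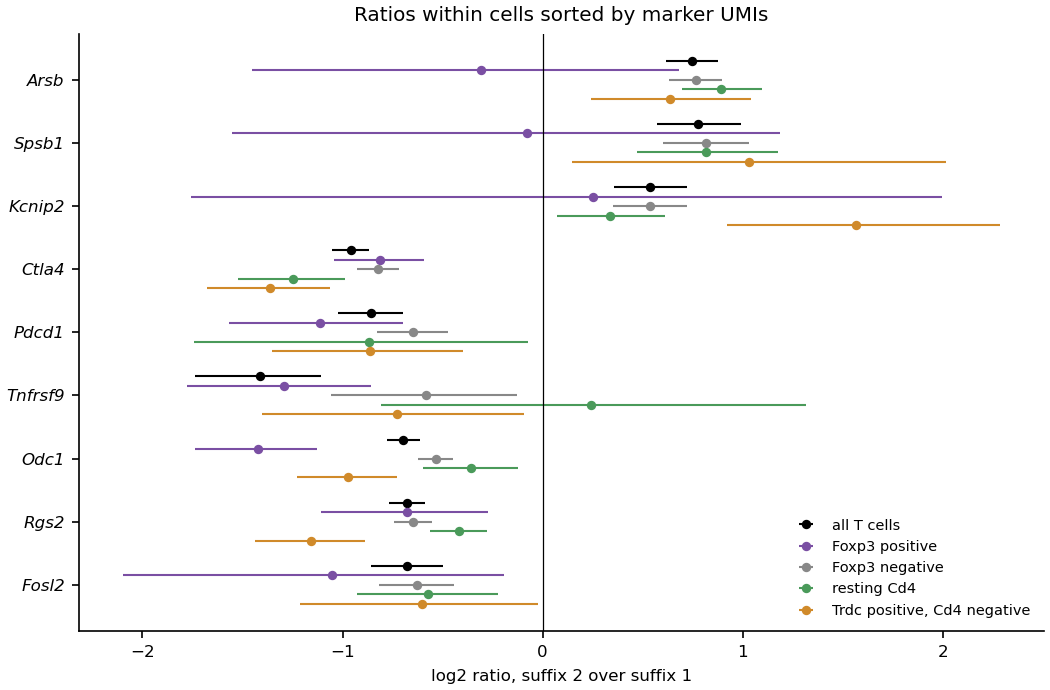
Log2 ratios of suffix 2 over suffix 1 with exact 95% intervals for 9 named genes in all T cells and in 4 sets of T cells chosen by marker UMIs. Arsb and Spsb1 lie right of 0 except in Foxp3 cells, where intervals span 0; Ctla4, Pdcd1, Odc1, Rgs2 and Fosl2 lie left of 0 in every set plotted, and Tnfrsf9 spans 0 in resting Cd4 cells.

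The early TCR response was low in both libraries. Of 13 measured members 4 were lower in suffix 2 (Nr4a3, Dusp5, Tnfrsf4 and Tnfrsf9), against 1.16% of all measured genes. None was higher, against 0.406%, and the median log2 ratio was -0.14. Tnfrsf4 and Tnfrsf9 are also among the lower genes of the regulatory T cell list. Without Foxp3 cells Dusp5 (log2 -0.577), Tnfrsf4 (-0.49) and Tnfrsf9 (-0.58) lay inside 1.5-fold, and Nr4a3 had -1.31. In resting Cd4 cells only Dusp5 was lower, of 7 members measured there. Egr1 had 152 UMIs in suffix 2 and 149 in suffix 1, and the activation marker Cd69 stood at 20.4 CPM in suffix 2 and 19.4 CPM in suffix 1 (log2 0.07, -0.09 to 0.22). Junb, an AP-1 subunit, stood at 104 CPM in suffix 2 and 129 CPM in suffix 1 (log2 -0.31). Among thinned cells 7 of suffix 2 (0.186%, 0.0747 to 0.382) and 12 of suffix 1 (0.301%, 0.156 to 0.525) held at least 2 of 8 TCR response genes. Of the thinned B cell or erythroid barcodes 1 of 34 did (2.94%, 0.0744 to 15.3), too few to place either share above or below a background.

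Of 10 measured inhibitory receptors Pdcd1, Ctla4 and Tigit were at least 1.5-fold lower in suffix 2, against 1.16% of all measured genes. None was higher, against 0.406%. Ctla4 and Tigit are also in the regulatory T cell list, and without Foxp3 cells Tigit (log2 -0.48) lay inside 1.5-fold. The other measured receptors had ratios near 0, such as Btla, a receptor of the CD28 family, with 49.5 CPM in suffix 2 and 49.6 CPM in suffix 1. None of 17 measured genes of the naive state was past 1.5-fold, and their median log2 ratio was -0.01. None of 22 interferon gamma response genes was past it. Of all measured genes 0.406% were past it as higher and 1.16% as lower, so a count of 0 in lists of this size says little. Of 18 type I interferon genes 1 was lower, Isg15 (log2 -0.63), against 1.16% of all measured genes. In the memory list 2 of 20 measured members were lower, S100a4 and Ccr2, against the same 1.16%. Both were free RNA genes, and the median log2 ratio of the list was -0.27. The median over 83 cytosolic ribosomal protein genes was 0.06.

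The 3 libraries of matrix G were aggregated separately and are given as values only. Beside them, suffix 1 was the lowest of the 5 libraries for 18.9% of all measured genes and the highest for 22.5%. Suffix 2 was the lowest for 18.2% and the highest for 14.6%. With 5 libraries some library is lowest and some highest for each gene, so these shares alone do not set suffix 1 apart. For the 3 genes given here suffix 1 stood outside the range of the other 4 libraries. Arsb stood at 36.8 CPM in suffix 2 and 21.96 CPM in suffix 1, and at 31.6, 42.4 and 32.8 CPM in G suffixes 1, 2 and 3. Spsb1 stood at 14.4 CPM in suffix 2 and 8.42 CPM in suffix 1, and at 13.7, 15.4 and 14.3 CPM in the G libraries. Rgs2 stood at 46.3 CPM in suffix 2 and 73.9 CPM in suffix 1, and at 42.9, 49.4 and 42.3 CPM in the G libraries. For these 3 genes suffix 2 lay within the range of G and suffix 1 outside it, but not every named gene did so. Foxp3 went the other way, at 3.62 CPM in suffix 2, 9.60 CPM in suffix 1 and 11.1, 5.15 and 8.48 CPM in the G libraries. For Ctla4, given below, both H libraries lay outside the range of G.

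Over the 15 higher genes suffix 1 was the lowest of the 5 libraries for 10, or 66.7%, against 18.9% of all measured genes. Suffix 2 was the highest for 8 of them, or 53.3%, against 14.6% of all measured genes. Over the 15 lower genes suffix 1 was the highest for 7, or 46.7%, against 22.5% of all measured genes. Suffix 2 was the lowest for 11 of them, or 73.3%, against 18.2%. The choice of these genes by the suffix 2 over suffix 1 ratio favours such ranks. Smad7 stood at 284 CPM in suffix 2 and 232.7 CPM in suffix 1, and at 241, 298 and 238 CPM in G suffixes 1, 2 and 3. Ctla4 stood at 40.7 CPM in suffix 2 and 79.2 CPM in suffix 1, and at 59.2, 51.3 and 63.2 CPM in the G libraries. Nr4a3 stood at 2.26 CPM in suffix 2 and 4.69 CPM in suffix 1, against 118, 3.46 and 115 CPM in the G libraries, so the ratio between the H libraries is small beside the range of the series.

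**Figure D5:**
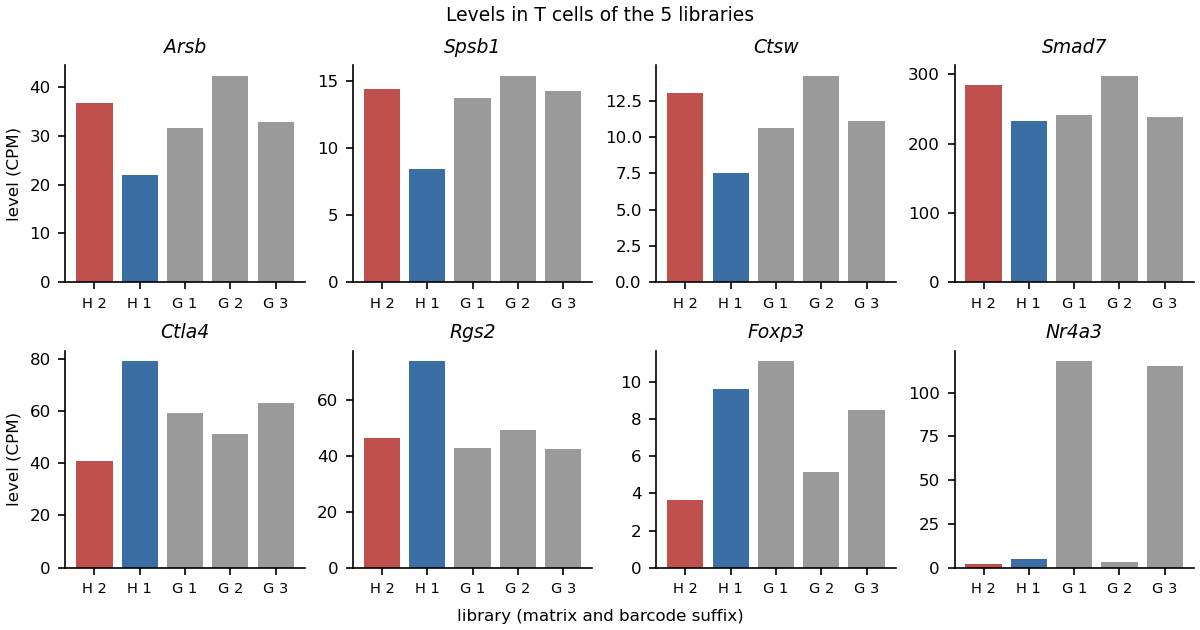
Levels in CPM of 8 genes in T cells of H suffix 2 (red), H suffix 1 (blue) and the 3 libraries of matrix G (grey), 1 bar a library with no replicates. Suffix 1 is the lowest bar for Arsb, Spsb1, Ctsw and Smad7 and the highest for Ctla4 and Rgs2, and Nr4a3 is high only in G suffixes 1 and 3.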

How the data were processed

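The authors deposited UMI counts from 10x Genomics 5′ libraries in 2 aggregated matrices of 32285 genes. Cell Ranger 6.0.0 and the build mm10 are named by the submitters' processing notes, and version 7.1.0 stands in the file headers. Depth equalisation and intron counting are not given in the sources used here. Counts were summed over T cells and divided by their total (CPM). Log2 ratios added 0.5 to each count, with exact binomial intervals, and levels had exact Poisson and shares Clopper-Pearson intervals at 95%, all for counting error only. Called genes were at least 1.5-fold apart with at least 200 UMIs. No doublet caller was run; alternatives without the top 5% of UMIs or without cells holding 2 markers of another type stand in for one. Named genes were the 15 with the highest lower bound, the 15 with the lowest upper bound, list members past 1.5-fold and some abundant list members. Markers of other cell types and MHC class II genes were mostly given as sums. Single list members beyond these were chosen after their values were seen. Members and lists were chosen with earlier results of these data known. The ratio was tested on simulated data with independent Poisson counts for each gene. Those counts leave out the clustering of UMIs in single cells, so that test does not cover it. Python 3.11.15 was used with numpy 2.4.6, scipy 1.17.1 and pandas 2.3.3.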

Additional observations from a re-analysis of the deposited data

Results flagged for a closer look

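Fibroblast marker RNA appeared in data outside the T cells. The 487 suffix 2 barcodes that were not T cells held 302 UMIs of the 10 fibroblast markers, or 213.4 CPM (190.0 to 238.9), against 5 UMIs or 3.84 CPM (1.25 to 8.95) in the 492 such barcodes of suffix 1. At least 2 of these markers were found in 54 of the suffix 2 barcodes, 50 of which had more than 10% mitochondrial UMIs, and in 1 of the suffix 1 barcodes. More than 10% mitochondrial UMIs were found in 99 barcodes of suffix 2 and 16 of suffix 1. The limit on mitochondrial UMIs thus removed most of the barcodes with fibroblast RNA.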

How the results depend on the processing

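No paired analysis was possible because each side is 1 library. As reported, 44 genes were higher, 126 lower and 24 distinct list genes past 1.5-fold. Counts of higher and lower genes moved with each cell thinned to 2000 UMIs (8 and 18, and 4 list genes), without the top 5% of UMIs (28 and 57, 14), in Cd4 cells without Cd8a, Cd8b1 or Trdc (17 and 71), at a floor of 100 UMIs (108 and 268) or 500 UMIs (11 and 48, 14), at 2-fold (7 and 49, 9), and, chosen after seeing the data, without free RNA genes (23 and 35, 11) and in resting Cd4 cells (13 and 21, 2). Lower genes numbered 76 with 3 of 5 markers and 65 without cells holding 2 markers of another type. Thinning, floors and gates change how many genes are measured. Between 24 and 30 of the 30 named genes kept their direction. The ratio of Agbl1 turned to 0.035 without the top 5% of UMIs, 0.022 without cells holding 2 markers of another type and 0.17 as a share of thinned cells. In resting Cd4 cells Esm1 turned to -1.51 (1 and 4 UMIs), Tnfrsf9 to 0.24, Atp6v0d2 to 0.73, Lamc1 to 0.22 and Ankrd6 to 1.22, and Foxp3 is absent by construction. The log2 ratio of the Cd8 share, 0.93 as reported, was 0.29 at 4000 UMIs, 0.28 with 3 of 5 markers, 0.20 without the top 5% of UMIs, 0.042 with at least 2 UMIs of the marker and -0.053 without thinning. The regulatory T cell median was -0.13 without Foxp3 cells. Genes of few UMIs are limited by depth, and culture, animal and library cannot be told apart.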
